A study of Mus musculus with 4 samples.

Results

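The 9 genes of the B cell antigen receptor and of the factors that establish the B lineage were followed in CD11b+ splenocytes of mice. They were chosen by gene symbol as Cd79a, Cd79b, Cd22, Blnk, Blk, Cr2, Pax5, Ebf1 and Pou2af1, and every probe set that carries 1 of these symbols alone was taken, which gave 15 probe sets of the 45037 on the array and 9 of the 18193 named genes. Gene expression was read with Affymetrix MOE430 2.0 arrays, on which a probe set is a group of short probes for 1 transcript. The sample, not the probes, was labelled with biotin. RNA of 5 mice was pooled for each array. Control mice, labelled as living under low threat, gave 2 pools, and mice exposed repeatedly to social threat, labelled as high threat, gave the other 2. The pools of both groups were total RNA of cells isolated by CD11b, the integrin chain encoded by Itgam, from the spleen. No genetic change or drug is named for either group, and strain, age and sex are not given in the sources used here.

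The B cell antigen receptor is a membrane immunoglobulin held in a complex with the signalling chains Ig-alpha (Cd79a) and Ig-beta (Cd79b), whose cytoplasmic tails are phosphorylated by Src-family kinases when antigen binds. The adaptor Blnk then couples the kinase Syk to downstream enzymes, Cr2 lowers the threshold for a response as part of a coreceptor, and Cd22 restrains it. Ebf1 and Pax5 are the transcription factors that specify and maintain B cell identity, and Pou2af1 is a coactivator that joins the octamer-binding proteins at B cell promoters. CD11b is carried mainly by neutrophils, monocytes and macrophages, but also by subsets of lymphocytes including B cells. The receptor genes are read here in a mixed myeloid-rich population. Whether their transcripts came from B cells that carry CD11b or from other cells carried over in the isolation was not tested.

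Promoters of 7 of the 9 genes were found in the RefSeq table of the GRCm38.p6 mouse assembly and were searched on both strands, from 250 bases before to 50 after the start, for 3 short motifs linked to these factors. The windows of Cd79a, Blnk and Cd22 are shown because these genes encode a signalling chain, the adaptor and the inhibitory receptor of the same complex, and all 3 fell under social threat. Each sequence printed is the 250 bases before the gene's start, 5′ to 3′ on the gene's own strand, with motif matches in capitals. Cd79a lies at chr7:24897247-24897496 on the plus strand, Cd22 at chr7:30879029-30879278 on the minus strand and Blnk at chr19:40994222-40994471 on the minus strand.
Cd79a: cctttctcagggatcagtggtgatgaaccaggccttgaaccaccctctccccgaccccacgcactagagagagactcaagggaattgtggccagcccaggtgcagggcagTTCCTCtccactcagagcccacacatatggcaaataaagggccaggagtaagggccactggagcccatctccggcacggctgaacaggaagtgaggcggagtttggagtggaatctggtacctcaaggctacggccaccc
Cd22: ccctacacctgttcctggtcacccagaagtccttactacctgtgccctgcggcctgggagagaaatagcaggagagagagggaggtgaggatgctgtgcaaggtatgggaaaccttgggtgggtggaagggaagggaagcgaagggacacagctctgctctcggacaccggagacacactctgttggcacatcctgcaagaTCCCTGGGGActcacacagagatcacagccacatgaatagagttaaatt
Blnk: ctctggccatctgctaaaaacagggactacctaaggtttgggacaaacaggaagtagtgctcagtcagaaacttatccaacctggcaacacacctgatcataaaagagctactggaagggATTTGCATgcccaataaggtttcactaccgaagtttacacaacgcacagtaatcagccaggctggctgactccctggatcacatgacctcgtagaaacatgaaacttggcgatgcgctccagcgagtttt

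In Blnk the capitals mark an octamer, searched as ATGCAAAT and found on the opposite strand at positions -130 to -123, where -1 is the last base before the start. It was the only octamer in the 8 promoters of these 7 genes, and 1.74% of all 32851 promoters in the table hold it. In Cd22 the capitals mark an EBF1 motif, the palindrome of TCCC and GGGA around any 2 bases, at positions -49 to -40. This motif was found in 1 of the 8 promoters and in 0.904% of all promoters. The capitals in Cd79a mark GAGGAA, a motif of PU.1 and related ETS proteins, on the opposite strand at positions -140 to -135. It was found in 3 of the 8 promoters and in 28.3% of all promoters, before the start in Cd79a and Ebf1 and after it in Pou2af1. The motifs do not overlap in these windows, and a match is a run of letters, not a site shown to be bound.

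Across probe sets, Pearson's r was at least 0.9966 for pools of the same group and at most 0.9904 for pools of different groups. Itgam stood at 10.47 and 11.01 in the control pools and at 11.64 and 11.59 in the social threat pools on the log2 scale, well above the highest array median of 4.43 in all 4. The B cell marker Ms4a1, which encodes CD20, stood at 10.13 and 10.22 in control pools and at 9.21 and 9.18 in social threat pools. These levels too lay far above the array medians in every pool. Nothing in the labels says that the pools of a group came from separate isolations or days, so p-values rest only on the spread between these pools. That spread is moderated by limma, which draws each probe set's variance toward that of probe sets of like level.

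The comparison of social threat with control asked how far the genes of the receptor and of the lineage program differed after repeated threat. Of the 9 genes, each read by its brightest probe set, 8 fell and 0 rose. The receptor chains Cd79a and Cd79b and the kinase gene Blk fell most, to between 43.2% and 46.3% of their control level, and the coactivator gene Pou2af1 fell least, to 80.4%. Pax5 was not called and lay near the array median. Over all 18193 genes, 11.7% were called lower and 9.4% higher. The median log2 difference of the 9 genes was -0.79, against -0.02 over all genes.

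By probe set, 12 of the 15 were called lower and 0 higher, against 8.67% and 7.09% of all probe sets. The same 12 had both social threat pools below both control pools, which held for 28.6% of all probe sets. By gene, 8 of 9 separated in this way, against 32.1% of all genes. Falls of at least 1.5-fold were called for 7 of the 9 genes and for 3.62% of all genes, and falls of at least 2-fold for 3 of them and for 0.72% of all genes. The 7 genes with a mean log2 level of at least 7 all fell, where 22.7% of the 6586 genes of that brightness did. Among these 12 probe sets the log2 difference ran from -1.21 to -0.32, a fall of 2.32-fold at most and 1.24-fold at least. The widest gap between pools of a group was 0.508, in a probe set of Ebf1, and the narrowest gap between the lowest control pool and the highest social threat pool was 0.275, in Pou2af1. In bulk RNA, fewer B cells, a larger share of other cells and less of these transcripts per cell cannot be told apart.

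**Figure D1:**
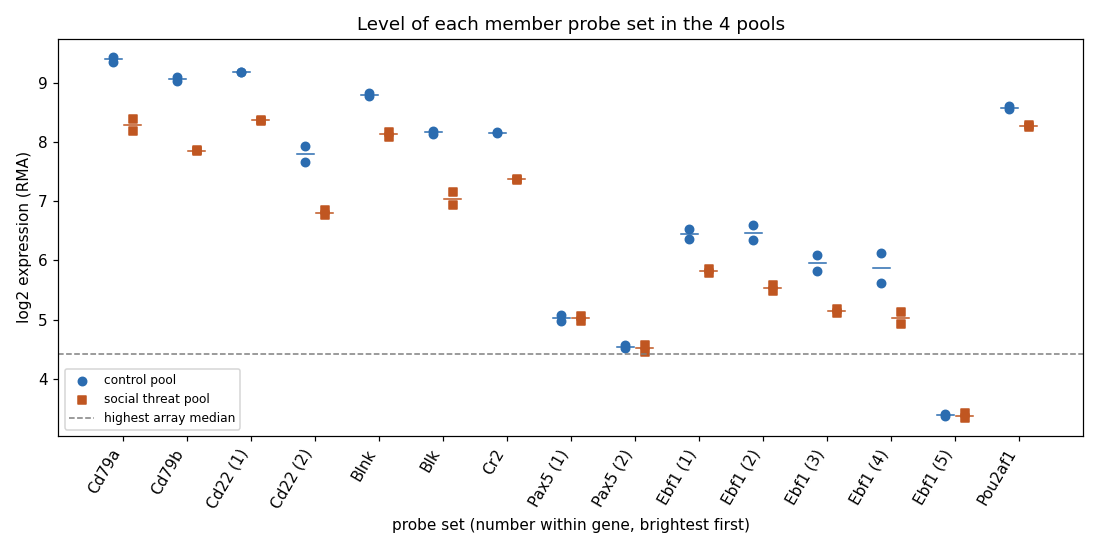
Log2 expression of the 15 probe sets (horizontal axis, numbered within a gene from the brightest) in each control pool (circles) and social threat pool (squares), with short lines at the group means and a dashed line at the highest array median of 4.43. In 12 probe sets both squares lie below both circles, while both probe sets of Pax5 and the dimmest of Ebf1 overlap.

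The signalling chains of the receptor were read by 1 probe set each. Cd79a (chromosome 7) stood at 9.36 and 9.44 in the control pools and at 8.39 and 8.19 in the social threat pools. Both social threat pools were lower by about 1 log2 unit, and the groups did not overlap. Its log2 fold change was -1.11 (SE 0.08, limma adjusted p = 1.56e-05). Cd79b (chromosome 11) stood at 9.10 and 9.04 in control pools and at 7.85 and 7.86 under social threat. The social threat pools were nearly equal and clearly below both controls. Cd79b fell by 1.21 (SE 0.07, limma adjusted p = 3.6e-06), which placed it 43rd from the largest fall among 18193 genes, with Blk 72nd and Cd79a 76th.

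Blk encodes a Src-family kinase of B cells that acts at the receptor. It stood at 8.19 and 8.14 in the control pools and at 7.15 and 6.94 in the social threat pools (chromosome 14). The gap between its social threat pools, 0.209, was the widest among the genes read by 1 probe set, yet far smaller than the difference between groups. Blk fell by 1.12 (SE 0.09, limma adjusted p = 4.33e-05). Blnk, the adaptor downstream of Syk, stood at 8.82 and 8.78 in control pools and at 8.17 and 8.09 under social threat (chromosome 19). Its pools separated without overlap, with a smaller fall of 0.67 (SE 0.07, limma adjusted p = 0.000174) to 62.9% of the control level. The promoter with the octamer shown above belongs to this gene.

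The coreceptors fell by amounts between those of the receptor chains and of Blnk. Cr2, which encodes the complement receptor CD21 and in mice also CD35, stood at 8.15 and 8.17 in control pools and at 7.38 and 7.37 under social threat (chromosome 1). The pools of each group differed by 0.024 at most, and Cr2 fell by 0.79 (SE 0.08, limma adjusted p = 0.00012). Cd22, a sialic acid-binding inhibitory receptor, was read by 2 probe sets. The brighter (chromosome 7) stood at 9.18 and 9.19 in control pools and at 8.36 and 8.38 under social threat. The dimmer stood at 7.66 and 7.93 in controls and at 6.85 and 6.77 under social threat. Both probe sets separated the groups, with falls of 0.81 (SE 0.06, limma adjusted p = 2.56e-05) and 0.98 (SE 0.11, limma adjusted p = 0.00022).

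**Figure D2:**
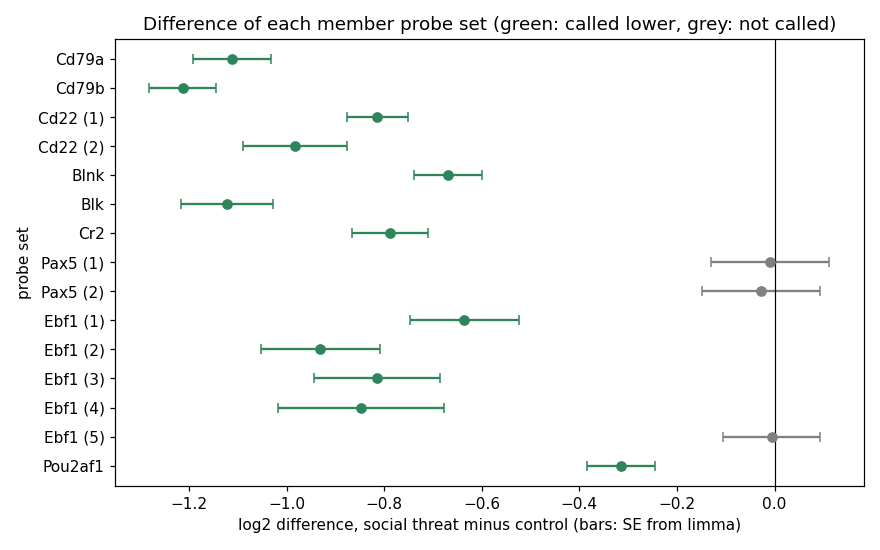
Log2 difference of each probe set, social threat minus control (horizontal axis), with bars of 1 SE from limma; green points were called lower at an adjusted p under 0.05 and grey points were not called. The receptor chains and Blk lie near -1.1 to -1.2, Pou2af1 at -0.32, and 3 probe sets (both of Pax5 and 1 of Ebf1) lie at about 0.

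The transcription factors differed among themselves. Ebf1, on chromosome 11, was read by 5 probe sets, of which 4 fell. The brightest stood at 6.37 and 6.54 in control pools and at 5.78 and 5.85 under social threat, and it fell by 0.64 (SE 0.11, limma adjusted p = 0.0038). The next stood at 6.34 and 6.59 in controls and at 5.59 and 5.49 under social threat, a fall of 0.93 (SE 0.12). Both separated the groups, as did the third and the fourth, which fell by 0.81 (SE 0.13) and 0.85 (SE 0.17). The fifth stood between 3.34 and 3.42 in all 4 pools, below the array medians, and overlapped between groups. Without social threat pool 1 the calls of the brightest (limma adjusted p = 0.0703) and of the fourth (limma adjusted p = 0.0998) were lost, while the other alternatives gave at most 0.0486 and 0.0426. Under social threat the 4 called probe sets stood between 4.93 and 5.85, where background limits how far a fall can be read.

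Pax5, on chromosome 4, was read by 2 probe sets. The brighter stood at 4.98 and 5.09 in control pools and at 4.98 and 5.07 under social threat. The other stood at 4.52 and 4.57 in controls and at 4.46 and 4.57 under social threat. Values overlapped in both, with log2 differences of -0.01 (SE 0.12, limma adjusted p = 0.979) and -0.03 (SE 0.12, limma adjusted p = 0.928). These levels lie within 0.7 of the highest array median, and RMA gives no detection call, so a level of Pax5 transcript above background was not established in any pool.

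Pou2af1 (chromosome 9) stood at 8.60 and 8.56 in control pools and at 8.25 and 8.28 under social threat. The groups did not overlap, but the fall was small, at 0.32 (SE 0.07, limma adjusted p = 0.0127). The call was lost without the variance trend (adjusted p = 0.0604), without social threat pool 1 (0.183) and without social threat pool 2 (0.138), within a range of 0.00306 to 0.183 over all alternatives run. On each array, the log2 ratio of Cd79b to Pou2af1 was lower in both social threat pools than in both control pools, with a mean difference of -0.90. For Cd79b to Blnk that difference was -0.54, again with no overlap. Cd79a against Cd79b gave 0.10, with overlapping pools. Cd22 against Cr2 gave -0.03, and its groups nearly met, at 1.013 in the lower control pool and 1.011 in the higher social threat pool. An exact permutation test over 2 against 2 pools cannot go below p = 0.333, so these differences between genes are given without a test.

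**Figure D3:**
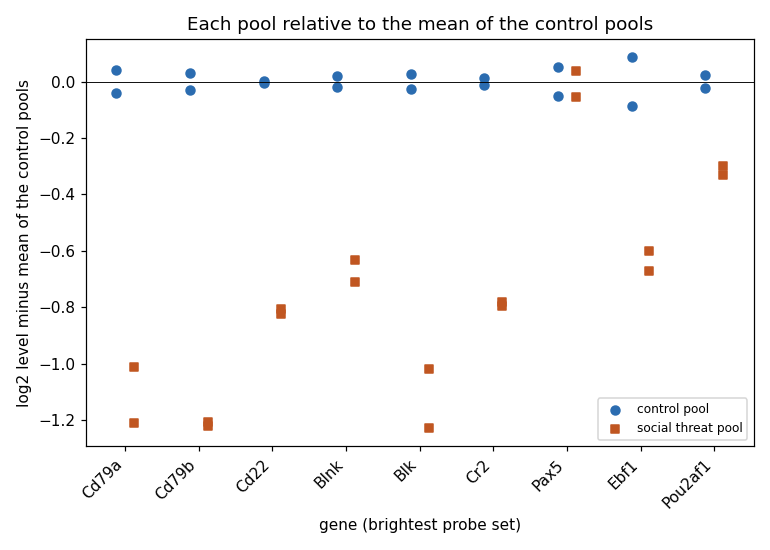
Log2 level of each gene's brightest probe set in each pool, after subtraction of the mean of the 2 control pools. Social threat pools (squares) lie between -1.01 and -1.23 for Cd79a, Cd79b and Blk, at -0.33 and -0.30 for Pou2af1, and around 0 for Pax5.

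Other genes of B cells were taken from lists of the receptor pathway and of the lineage. Of 26 measured genes of receptor signalling, 13 fell and 1 rose, with a median log2 difference of -0.24. Vav2, a guanine nucleotide exchange factor, fell by 0.74 (SE 0.11), the transcription factor gene Nfatc2 fell by 0.66 (SE 0.08) and Rasgrp3, an activator of Ras, fell by 0.58 (SE 0.10). Sh3bp5, an inhibitor of the kinase Btk, rose by 0.46 (SE 0.05). The count of falls in this list depended on the settings, with 6 falls without the variance trend, 6 without social threat pool 1 and 5 without social threat pool 2.

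B cell surface genes fell for 13 of 19 measured and rose for 2, with a median log2 difference of -0.89. Fcer2a, the low-affinity IgE receptor, had the largest difference, from 8.26 ± 0.02 to 6.79 ± 0.02 (SD, n = 2 pools). Fcmr, a receptor for IgM, stood at 8.10 ± 0.11 under social threat and Fcrla, an Fc receptor-like protein of B cells, at 6.40 ± 0.04, after control levels of 9.45 ± 0.01 and 7.70 ± 0.11. Fcmr fell by 1.35 (SE 0.07) and Fcrla fell by 1.30 (SE 0.10). Ms4a1 fell by 0.98 (SE 0.06). The genes that rose were Cd24a by 0.38 (SE 0.03) and the tetraspanin gene Cd37 by 0.19 (SE 0.04). Other leukocytes can express genes of this list and of the B cell lists below, whether they fell or rose. Which cells gave the signal was not tested.

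Further transcription factor genes of the lineage were measured for 22 symbols, of which 15 fell and 3 rose, with a median of -0.51. Bach2, a repressor that holds back plasma cell differentiation, fell by 1.33 (SE 0.10), from 8.16 and 7.92 in control pools to 6.77 and 6.66. Irf4 fell by 1.15 (SE 0.09) and the ETS factor gene Spib fell by 1.13 (SE 0.07). Myb, a factor of progenitor cells, rose by 1.04 (SE 0.07) and Id2, an inhibitor of E proteins, by 0.47 (SE 0.05).

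Genes of other B cell stages were mixed. Of 12 early B cell genes, 4 fell and 1 rose, and 6 stayed at or below the highest array median in both group means. Il7r, the interleukin 7 receptor chain that T cells also carry, fell by 1.04 (SE 0.09), Sox4 fell by 0.91 (SE 0.10) and Vpreb3, a protein of the surrogate light chain family, fell by 0.79 (SE 0.11). Erg, an ETS factor of progenitors and endothelium, rose by 1.80 (SE 0.11). Of 15 genes of marginal zone and B1 cells, 8 fell and 1 rose, with a median of -0.17, and 5 fell without social threat pool 2. Cd5, which T cells express as well, fell by 1.71 (SE 0.11), Dtx1, a Notch pathway gene of marginal zone cells, fell by 1.01 (SE 0.08) and Ctla4 fell by 0.84 (SE 0.12), while Pstpip2 rose by 0.34 (SE 0.09). Plasma cell genes fell for 2 of 10 (Irf4, and Prdm1, which fell by 0.34, SE 0.09) and rose for 1 (Derl3, by 0.72, SE 0.12), with a median of 0.01. Beside these counts, 11.7% of all genes fell and 9.4% rose. Without control pool 1 or either social threat pool, only 1 plasma cell gene fell, as also without the variance trend.

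Markers of the other cell types that the CD11b+ preparation could hold moved in the same pools, and their part in the fall of the receptor genes was not tested. T cell markers fell for 12 of 13 genes, and the sum of their antilog levels was 1943 to 1992 in control pools and 935 to 981 under social threat. Conventional dendritic cell markers fell for 10 of 10, from 9672 to 9862 down to 4103 to 4276, with Cd209a lower by 2.00 (SE 0.07). Cd83, the brightest gene of the dendritic cell list at 12.04 ± 0.06 in controls, fell by 1.22 (SE 0.04). Which cells gave the signal of this list was not tested. NK cell markers fell for 7 of 11, with sums of 4932 to 5024 and 2656 to 2746, and Klrk1 fell by 1.34 (SE 0.08). For the 9 receptor and lineage genes the same sum was 3314 to 3316 in control pools and 1820 to 1880 under social threat. It was 16245 to 16392 in control pools and 14714 to 14735 under social threat for the B cell surface list. For the further lineage transcription factors it was 14779 to 15009 and 13475 to 13549, and for receptor signalling 31707 to 31805 and 30113 to 30130. All B cell lists beside the 9 genes had a smaller relative drop in this sum. Such sums weigh bright genes most, and Cd24a, the brightest of the surface list, rose.

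Plasmacytoid dendritic cells also express several of these genes, among them Cd79b, Blnk and Blk. Their markers fell for 3 of 6 genes, with Ccr9 lower by 1.28 (SE 0.18), and their sum was 930 to 972 in controls and 644 to 668 under social threat. Follicular dendritic cells carry Cr2, and stroma can express Ebf1. In that marker list 2 of 12 genes fell and 1 rose, beside 11.7% and 9.4% of all genes. Its median was -0.07 and its sums were 3048 to 3134 and 2439 to 2484. Of its 12 genes, 5 stood at or below the highest array median in both group means. Mfge8 fell by 0.64 (SE 0.10), and Cxcl13, a chemokine of follicles, rose by 0.57 (SE 0.15). Vcam1, which fell by 0.42 (SE 0.04), made up most of the sum and is also counted among the red pulp macrophage markers. Without social threat pool 2 only 1 gene of this list fell. Of 12 red pulp macrophage markers 9 fell, and Axl fell by 1.19 (SE 0.06), with sums of 15429 to 15662 and 11322 to 11396.

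Neutrophil granule genes rose for 10 of 10, with sums of 63035 to 64177 in controls and 95626 to 96063 under social threat, and Mpo, the granule myeloperoxidase, rose by 4.85 (SE 0.09). Of 8 general CD11b myeloid genes 4 rose and 2 fell (the growth factor receptor genes Csf1r and Csf3r), with sums of 45653 to 47204 and 47895 to 48243. Only 2 of these rose without either social threat pool, and 1 without the variance trend. Itgam itself rose by 0.88 (SE 0.13), with a wider gap between its control pools (10.47 and 11.01) than any of the 15 receptor and lineage probe sets. RMA gives no value of 0, so no defining marker of these lists is at 0.

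**Figure D4:**
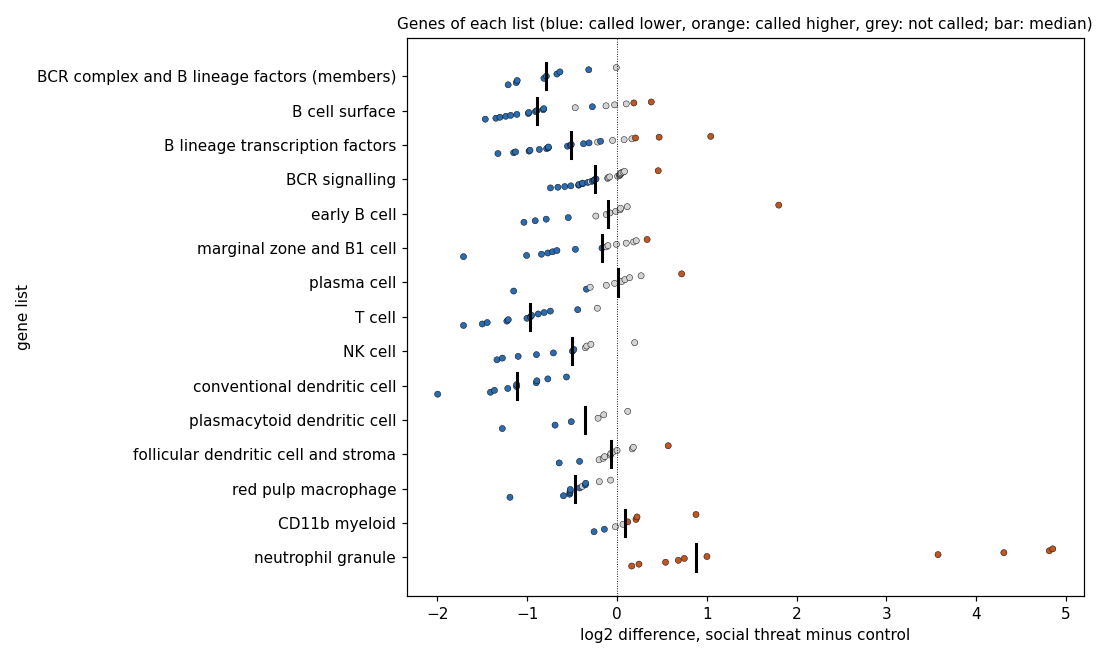
Log2 difference of each measured gene, social threat minus control (horizontal axis), by gene list, with a bar at each list's median; blue genes were called lower, orange higher and grey not called. The median of the receptor and lineage genes is -0.79, that of the B cell surface list -0.89 and that of the further lineage transcription factors -0.51, and the neutrophil granule genes lie to the right of 0.

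The genes whose pattern over the 4 pools was most like the mean of the 9 were found among 6579 other genes with a mean log2 level of at least 7, by the root mean square distance between centred log2 values. They were Ece1 (distance 0.014), Tspan3 (0.017), Ccnd2 (0.020), Lpin1 (0.021) and Cd1d1 (0.024), with the next gene also at 0.024. Ccnd2 encodes cyclin D2, and Cd1d1 encodes a lipid-presenting molecule that marginal zone B cells, dendritic cells and macrophages carry. Their log2 differences ran from -0.75 for Ece1 to -0.72 for Cd1d1, a size that the measure of likeness fixes.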

How the data were processed

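Log2 expression per probe set was deposited for 4 arrays, each the pooled RNA of 5 mice, and the submitters' processing notes give RMA as the authors' tool, without a version. RMA subtracts background, equalises the distributions of the arrays and compresses differences of dim probe sets. The deposited log2 values ran from 2.26 to 14.25, with array medians of 4.41 to 4.43, and were used without further normalization. Scanner files were not used here, and the number of arrays limits the precision. No source used here gives a batch, and one that coincided with the groups could not be told apart from them.

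The supplied platform annotation gave 34945 probe sets 1 symbol, 932 several and 9160 none. Entrez identifiers of 34741 matched RefSeq genes of GRCm38.p6, which changed 0 symbols. A gene in a list was read by its brightest probe set (highest mean over the 4 arrays). Social threat minus control was fitted to all 45037 probe sets in R 4.3.3 with limma 3.58.1 (lmFit, eBayes with a mean-variance trend, 2 residual and 7.1 prior degrees of freedom). Two-sided p-values had Benjamini-Hochberg adjustment over all probe sets, and a call, written as rose or fell, needs an adjusted p under 0.05. Group values are means ± SD of 2 pools.

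The members and the gene lists were chosen with earlier results of these data known, and lists are described by counts and medians without a set test. Named genes were all member probe sets, up to 3 falls and 2 rises of each B cell list, the called gene with the largest difference of each other list, Itgam and Ms4a1, and the 5 genes most like the members. Some genes of the lists and of this rule are not reported here. Promoter sequences are those of RefSeq, and a planned search of protein sequences was not run.

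On simulated data for this comparison, with 200 of 45037 probe sets changed, recovery was 74.2% of 66 changed by 1.5-fold, 97% of 67 by 2-fold and 100% of 67 by 4-fold, with 2.16% of calls false. The changed probe sets were picked among those with a mean of at least 6, so recovery of dimmer ones was not measured. The data gave 7099 calls, far more than the simulation, so its false share need not hold for them. The alternatives were no variance trend, robust variance, centred medians, quantile normalization, a filter at a mean of 6, the mean of a gene's probe sets, the pool number as a block, and each pool left out.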

Additional observations from a re-analysis of the deposited data

How the results depend on the processing

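The median log2 difference of the 9 genes stayed between -0.80 and -0.78 under all alternatives run. The count of genes that fell was 8 under each alternative except without the variance trend (7) and with 1 pool left out (6 to 8), and member probe sets called lower were 9 to 12 with 1 pool left out and 0 were called higher in any setting. Only Pou2af1 and 2 probe sets of Ebf1 lost calls, as given with their values; the cause was not tested. Without the variance trend, 4689 probe sets were called in place of 7099, 6 receptor signalling genes and 1 plasma cell gene fell, and 1 CD11b myeloid gene rose. With 1 pool left out, 3171 (without social threat pool 2) to 8721 probe sets were called; in such fits the lone pool is assumed to vary like the other group. The same fits gave 5 to 13 falls of receptor signalling genes, 5 to 8 of marginal zone and B1 cell genes, 1 to 2 of plasma cell genes and 1 to 2 of follicular dendritic cell and stroma genes, and 2 to 5 rises of CD11b myeloid genes. With the mean of a gene's probe sets, 3 plasma cell genes fell. The filter at a mean of 6 left no value for probe sets dimmer than that, Pax5 among them. Pool numbers are shared between groups, but deviations of same-numbered pools correlated at only 0.052 across probe sets and no label pairs them. With the pool number as a replicate block, 8168 probe sets were called and 12 member probe sets fell, as without it. Dim levels limit what can be read of Pax5 and Ebf1.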

Other observations

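Receptors that guide B cells in the follicle were also measured, and the genes of this paragraph were chosen after their values were seen. Cxcr5, the chemokine receptor for entry into follicles, fell by 1.11 (SE 0.08), and Cd40, which receives T cell help, fell by 1.24 (SE 0.08). H2-Ob, a chain of the class II peptide-loading modulator in B cells, fell by 1.18 (SE 0.06). Tnfrsf13c, the receptor for the survival factor BAFF, fell by 0.82 (SE 0.11), whereas Tnfrsf13b, another receptor of that family, gave a log2 difference of 0.10 (SE 0.06) and was not called. Among plasma cell genes, Jchain, the joining chain of secreted IgM and IgA, stood at 10.72 ± 0.01 in control and 10.69 ± 0.01 in social threat pools (SD, n = 2), and Xbp1, a factor of secretory cells, gave a log2 difference of 0.09 (SE 0.04), neither called.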
